A study of Mus musculus with 4 samples.

Results

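The genes described here encode the machinery that copies DNA in S phase, 37 in all: the replicative helicase, the factors that load and fire it, the clamp and its loader, the replicative polymerases, the single-strand binding protein, the ligase and the chromatin assembly factor. They were chosen by gene name, and 47 of the 55681 probes of the array carried one of those names. Of these, 45 probes passed the filter on dim probes, and all 37 genes were among the 20227 genes tested for a response to PJ34 and among the 17245 tested for their untreated level. Where a gene had several probes, the brightest was used.

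Before S phase, ORC, Cdc6 and Cdt1 load the ring of Mcm2 to Mcm7 onto origins of replication, and geminin (Gmnn) blocks Cdt1 so that an origin is used once per cycle. The kinase Cdc7 with its activator Dbf4, together with Mcm10 and the GINS complex, turns the loaded ring into an active helicase. At the fork, polymerase alpha-primase lays down primers, replication factor C (RFC) loads the PCNA clamp, polymerases delta and epsilon extend the strands, and RPA covers the single-stranded DNA until ligase and CAF-1 seal and package the product. Transcription of many of these genes is controlled by E2F factors and peaks around the entry into S phase, so their mRNA is commonly read as a sign of proliferation in neural progenitors.

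NSPCs (neural stem/progenitor cells) were taken from embryos at embryonic day 13.5, for which the paper names the strain Slc:ICR. They were grown as neurospheres with EGF and basic FGF. Cells of the wildtype or the Trp53-/- genotype, the latter from a line of Trp53-heterozygous mice obtained from RIKEN, were left untreated or were given 20 µM PJ34, an inhibitor of poly(ADP-ribose) polymerases, for a time that the sources used here do not give for the arrays. The paper does not give the background of the RIKEN line, so a difference of strain cannot be told apart from genotype. Each of the 4 two-colour arrays carried PJ34-treated RNA in Cy5 against untreated RNA of the same genotype in Cy3. There were 2 independently prepared arrays per genotype and no dye swap. A log2 ratio below is PJ34 over control on one array, and a level is the log2 intensity of the untreated channel. A dye effect common to all arrays remains in each genotype's ratio and cancels in the difference between genotypes. In such bulk RNA, fewer cells in S phase and less of a transcript per cell cannot be told apart.

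The untreated Trp53 level was 8.28 and 8.51 on the wild-type arrays and 7.56 and 7.82 on the Trp53-/- arrays (difference -0.71, limma q = 0.0534). Whether that probe lies in the deleted part is not given in the sources used here. Cdkn1a, the p21 gene and a textbook p53 target, had ratios of 1.84 and 1.23 in wild-type and -0.48 and -0.74 in Trp53-/-, and its untreated level was 2.70 log2 units lower in Trp53-/- (q = 0.0101). All 10 markers of neural stem/progenitor cells on the list were above background in the untreated channel of the 4 arrays. On array Trp53-/- replicate 2 the ratio of the Y-linked genes Ddx3y and Eif2s3y was 3.12 and 4.22, against -0.20 to 0.84 on the other arrays, and that of Xist was -1.39. Results are therefore also given without that array. In the untreated channels both Y-linked genes were lower on each Trp53-/- array (limma q = 0.00914 for both). Ddx3y had 8.25 and 8.06 in wild-type against 6.04 and 6.17 in Trp53-/-, and Eif2s3y 8.96 and 8.47 against 6.01 and 6.24. Leaving out 1 array does not remove that difference, and the sex of the embryos is not given. Over all genes the ratios of replicate arrays correlated at 0.70 in wild-type and 0.64 in Trp53-/-, and over the 37 replication genes at 0.68 and 0.16.

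Each gene was read by a probe of 60 bases. The probes of Pold1, which had the largest fall in wild-type, and of Pole2, which had the largest difference between genotypes that passed the test, are shown because both align across an exon junction, over 369 and 1400 bases of the genome, and so read spliced mRNA.
Pold1, mm9 chr7:51788221-51788589, minus strand: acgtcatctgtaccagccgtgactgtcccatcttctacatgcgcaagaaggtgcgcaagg
Pole2, mm9 chr12:70307465-70308864, minus strand: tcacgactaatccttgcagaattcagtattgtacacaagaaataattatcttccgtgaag

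Promoters were examined for the letters bound by E2F (TTTCCCGC, TTTCGCGC, TTTGCCGC or TTTGGCGC), for the cell cycle homology region or CHR (TTTGAA or TTCGAA) and for CCAAT, each on both strands, in windows of 250 bases before and 50 after the RefSeq start. A window was given for 29 of the 37 genes. E2F letters occurred in 13 of these 29 (44.8%), against 704 of 27025 genes with a window (2.60%). CCAAT occurred in 18 of the 29 (62.1%, against 41.1% of all genes) and the CHR letters in 7 (24.1%, against 21.7%). In 7 genes an E2F match lay wholly before the start, and in the other 6, among them Pold1 and Pole2, only at or after it. Among the 13 genes with E2F letters, 10 fell in wild-type NSPCs with PJ34, as did 10 of the 16 with a window that lacked them, and the median log2 ratios of these groups were -0.41 and -0.37. The matches are a description of the windows, and binding was not measured. The 250 bases before the start are printed below, 5′ to 3′ on the strand of the gene, for the 5 genes of smallest p in wild-type that had an E2F match wholly in that stretch. Capitals mark the E2F letters, and in Mcm6 and Mcm5 the longer run of capitals is an overlap of matches on opposite strands.
Mcm6, GRCm38.p6 chr1:128359706-128359955, minus strand: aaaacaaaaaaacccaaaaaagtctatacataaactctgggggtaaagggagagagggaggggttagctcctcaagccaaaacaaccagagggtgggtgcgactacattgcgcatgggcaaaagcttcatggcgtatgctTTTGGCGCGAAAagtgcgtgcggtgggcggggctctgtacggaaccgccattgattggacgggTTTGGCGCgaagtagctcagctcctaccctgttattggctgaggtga
Mcm7, GRCm38.p6 chr5:138171884-138172133, minus strand: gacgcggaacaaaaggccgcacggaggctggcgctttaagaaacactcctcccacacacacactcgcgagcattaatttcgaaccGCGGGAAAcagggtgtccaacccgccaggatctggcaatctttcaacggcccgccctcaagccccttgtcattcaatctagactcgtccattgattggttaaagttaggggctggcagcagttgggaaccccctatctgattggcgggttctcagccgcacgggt
Mcm5, GRCm38.p6 chr8:75109259-75109508, plus strand: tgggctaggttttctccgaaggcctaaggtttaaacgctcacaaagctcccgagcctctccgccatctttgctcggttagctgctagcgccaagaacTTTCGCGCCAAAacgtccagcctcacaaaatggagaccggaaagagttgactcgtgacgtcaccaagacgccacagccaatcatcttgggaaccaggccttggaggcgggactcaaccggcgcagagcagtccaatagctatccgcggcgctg
Cdc6, GRCm38.p6 chr11:98907901-98908150, plus strand: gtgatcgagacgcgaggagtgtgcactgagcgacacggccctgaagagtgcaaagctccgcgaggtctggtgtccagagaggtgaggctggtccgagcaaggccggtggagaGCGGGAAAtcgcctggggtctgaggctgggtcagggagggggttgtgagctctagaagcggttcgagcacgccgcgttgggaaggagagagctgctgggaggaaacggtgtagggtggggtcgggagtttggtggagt
Gins3, GRCm38.p6 chr8:95633309-95633558, plus strand: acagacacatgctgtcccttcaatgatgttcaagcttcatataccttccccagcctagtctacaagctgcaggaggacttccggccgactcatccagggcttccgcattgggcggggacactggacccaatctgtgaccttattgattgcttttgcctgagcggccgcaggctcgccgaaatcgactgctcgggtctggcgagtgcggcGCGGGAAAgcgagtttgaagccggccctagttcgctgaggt

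**Figure D1:**
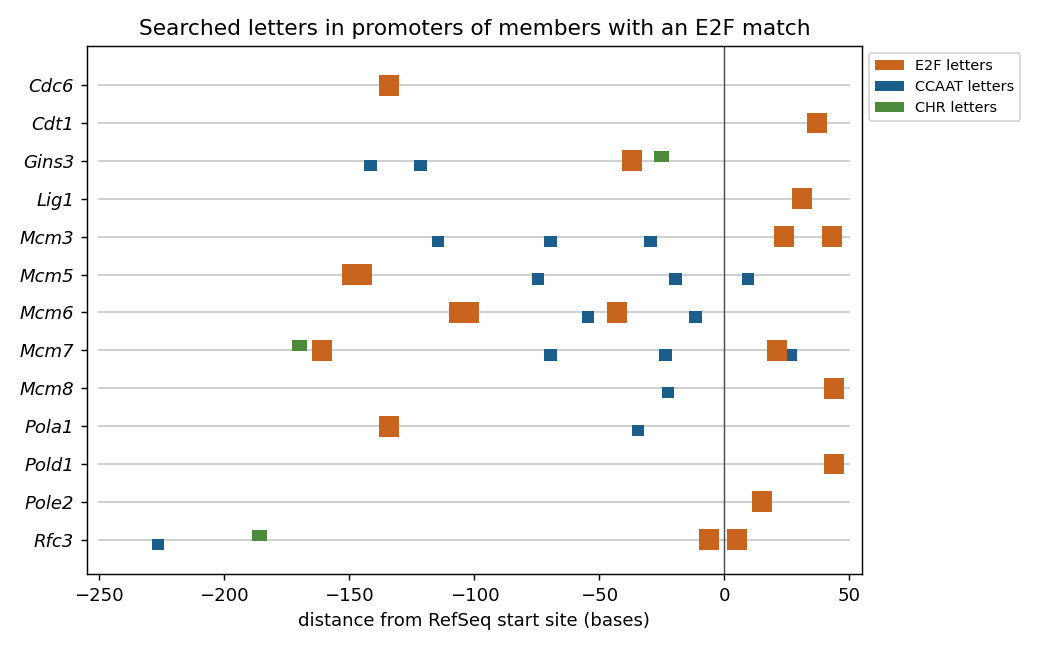
Position of the searched letters in the promoter windows of the 13 genes with an E2F match, in bases from the RefSeq start (vertical line), with E2F letters as tall orange bars, CCAAT as blue and CHR as green bars. In Mcm6 an overlapping pair and a single E2F match lie before the start, whereas in Pold1 and Pole2 the match lies after it.

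With PJ34, most of the replication genes fell in wild-type NSPCs. The mean ratio was below 0 for 36 of 37 genes, against 8868 of all 20227. Both arrays were below 0 for 35 of the 37, as they were for 30.8% of all genes. The fall passed the test (limma, q below 0.05) for 25 genes, or 67.6%, where the background was 11.3% of all genes, and no gene rose (background 13.6%). The median log2 ratio was -0.37 over the 37 genes and 0.029 over all genes. The falls were shallow: the largest, that of Pold1, was 45.4%, and none of the 37 passed the additional criterion of a fold change over 2 that the study's methods set (0.213% of all genes were lower by it). All 37 genes were below 0 on wild-type replicate 1 (median -0.28) and 35 on wild-type replicate 2 (median -0.43). Of all 20227 genes, 9441 and 9047 were below 0 on these arrays. Mki67, a general marker of cycling cells that is no member of the group, had ratios of -0.38 and -0.82 there (q = 0.00466). Without wild-type replicate 2 the number of genes called lower was 13, and with the scanner's own log ratios it was 10.

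In Trp53-/- NSPCs the same genes lay near or above 0. The mean ratio was above 0 for 28 of 37 genes, against 11380 of all 20227. The median was 0.11, against 0.033 over all genes. The test called 11 genes (29.7%) higher with PJ34, against a background of 12.8% of all genes, and 2 lower, Rfc5 and Pold1, against 10.5%. Both arrays were above 0 for 21 genes and below 0 for 4, where 41.2% and 30.2% of all genes were. The median was 0.19 on replicate 1 and 0.10 on replicate 2. Without Trp53-/- replicate 1 the number of genes called higher was 4 and without replicate 2 it was 5. Without the intensity-dependent normalization (each array centred on its median in place of loess), 29 genes were called higher in Trp53-/- and 13 lower in wild-type, with medians of 0.47 and -0.15, and the means of Rfc5 and Pold1 in Trp53-/- were above 0, so the level of the group against 0 in each genotype depends on that step. The shares of all genes called without that step are not given here, so these counts have no background beside them. The median difference between genotypes was -0.63 without that step, and 11 genes passed its test.

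That difference was tested directly. The ratio was lower in wild-type than in Trp53-/- for 36 of 37 genes, against 10406 of all 20227. The median difference was -0.55 log2 units, against -0.0067 over all genes. Both wild-type ratios lay below both Trp53-/- ratios for 32 genes, as for 23.9% of all genes, and 19 genes were below 0 on both wild-type arrays and above 0 on both Trp53-/- arrays, as were 5.40% of all genes. The difference passed the test for 12 genes, all lower in wild-type (background 0.470% of all genes), and for none in the other direction (background 1.27%): Pole2, Mcm3, Mcm10, Mcm6, Pole, Chaf1b, Gins2, Mcm7, Pold1, Mcm4, Lig1 and Dbf4. At an unadjusted p below 0.05, 31 genes were lower in wild-type, where 14.4% of all genes had such a p in either direction. Of the 12, 10 had also fallen in wild-type and 3 had risen in Trp53-/-. The number called lower in wild-type was 0 without Trp53-/- replicate 1, where Prim2 alone was called, as higher in wild-type (2.73, q = 9.16e-07). It was 3 without Trp53-/- replicate 2, and 0 with the scanner's own log ratios or with a background offset of 16, while the median difference lay between -0.50 and -0.63 under every alternative tried.

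**Figure D2:**
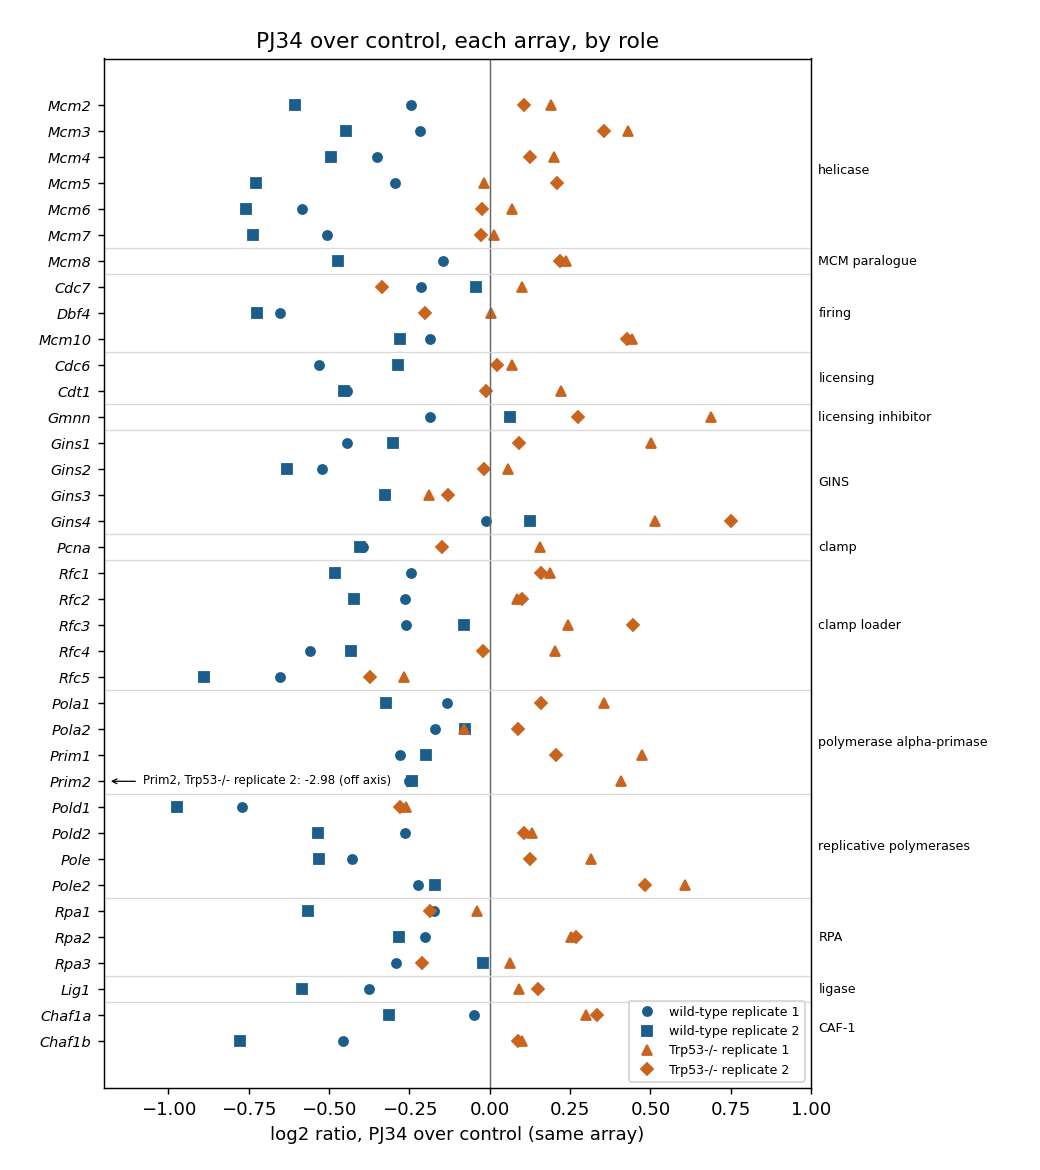
Log2 ratio of PJ34 over control for each of the 37 genes on each of the 4 arrays, grouped by role (right), with wild-type arrays in blue and Trp53-/- arrays in orange. For most genes both blue points lie left of both orange points, and Prim2 on Trp53-/- replicate 2 (-2.98) lies off the axis.

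**Figure D3:**
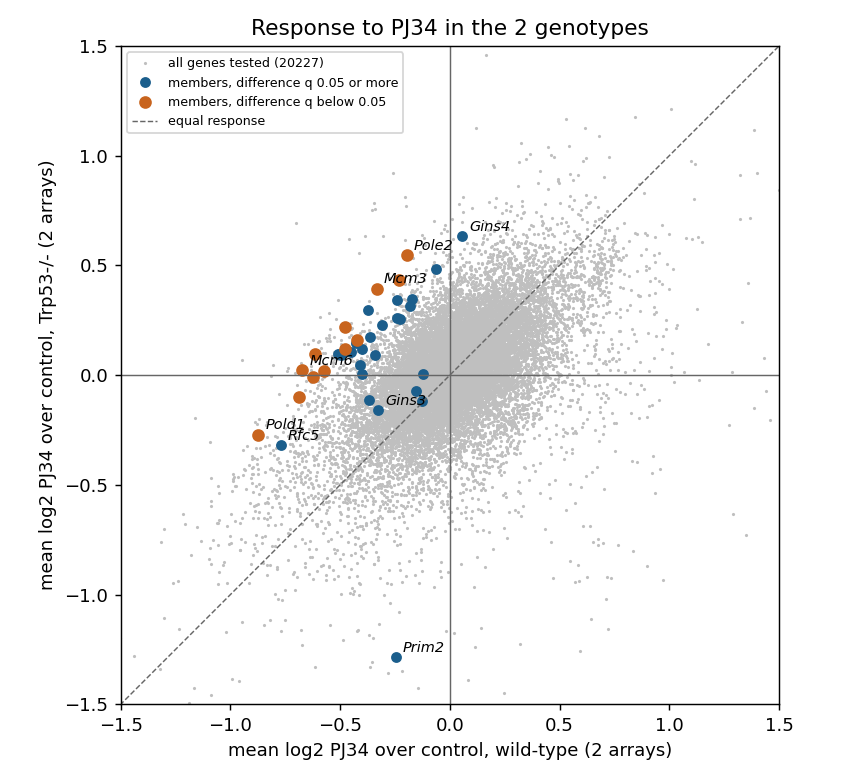
Mean log2 ratio in Trp53-/- (vertical) against wild-type (horizontal), 2 arrays each, for all 20227 genes tested (grey) and the 37 replication genes, coloured by whether the difference between genotypes passed the test. Of the replication genes, 36 lie above the dashed line of equal response and only Prim2 lies below it.

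**Figure D4:**
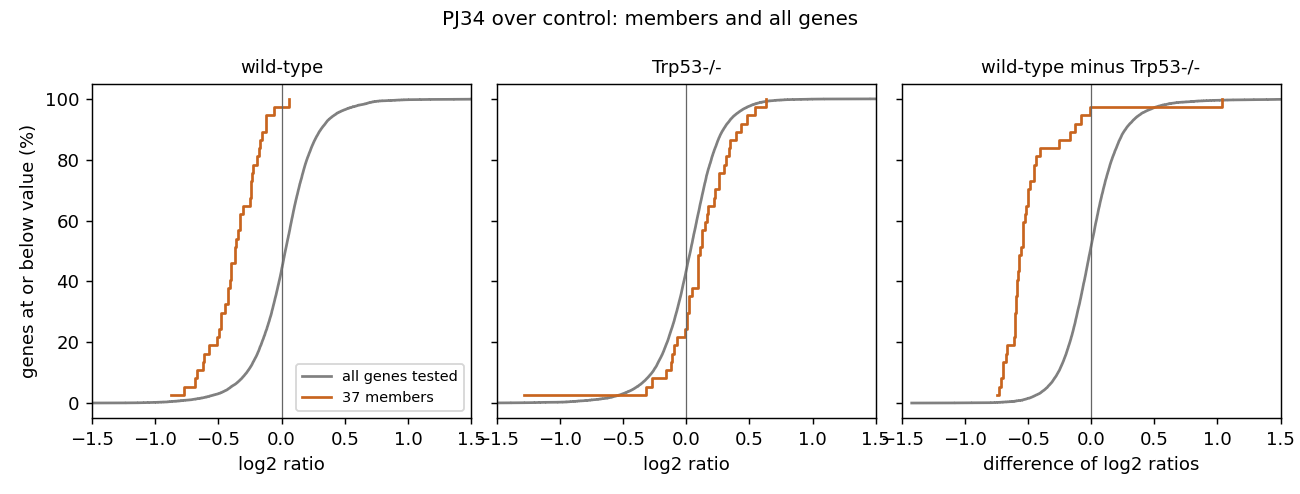
Cumulative share of genes (%) by mean log2 ratio in wild-type, in Trp53-/- and for the difference between them, for the 37 replication genes (orange) and all genes tested (grey). The medians of the replication genes are -0.37, 0.11 and -0.55, against 0.029, 0.033 and -0.0067 over all genes.

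The helicase subunits moved together. All 6 of Mcm2 to Mcm7, which form the ring that unwinds the duplex, fell in wild-type, and the genotype difference passed the test for Mcm3, Mcm4, Mcm6 and Mcm7. Mcm6 had log2 ratios of -0.59 and -0.76 on the wild-type arrays and 0.071 and -0.025 on the Trp53-/- arrays, a mean fall of 37.3% in wild-type (q = 0.000559) and a genotype difference of -0.70 ± 0.13 (SE). Those of Mcm7 were -0.51 and -0.74 on the wild-type arrays and 0.012 and -0.029 on the Trp53-/- arrays (wild-type q = 0.000946, difference -0.61 ± 0.13 (SE)). In both genes the wild-type arrays were low and the Trp53-/- arrays sat at about 0. Mcm3 stood at -0.22 and -0.45 on the wild-type arrays and 0.43 and 0.36 on the Trp53-/- arrays. It was the one helicase gene that changed both ways, falling in wild-type (q = 0.0186) and rising in Trp53-/- (q = 0.0102), and its difference was -0.73 ± 0.13 (SE). For Mcm4 the ratios were -0.35 and -0.49 on the wild-type arrays and 0.20 and 0.12 on the Trp53-/- arrays (wild-type q = 0.0055, difference -0.58 ± 0.13 (SE)). Mcm5 gave -0.29 and -0.73 on the wild-type arrays and -0.019 and 0.21 on the Trp53-/- arrays, with the widest gap between wild-type arrays of any of the 37 genes (SD 0.30, n = 2). Mcm2 gave -0.24 and -0.61 on the wild-type arrays and 0.19 and 0.11 on the Trp53-/- arrays. Both fell in wild-type (q = 0.00701 and q = 0.00997), and although their groups did not overlap, the difference between genotypes missed the threshold (q = 0.084 and q = 0.0745). Mcm8, a paralogue outside the ring with a role in recombination, fell in wild-type by a mean of 0.31 (q = 0.031). The change was smaller on replicate 1 (-0.15 against -0.47). Its second probe, dimmer but above background on all 4 arrays, had a wild-type mean of -0.084 (limma, unadjusted p = 0.379).

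Of the loading factors, both Cdc6 and Cdt1 fell in wild-type. Cdt1, which brings the ring to the origin, had ratios of -0.44 and -0.45 on the wild-type arrays and 0.22 and -0.011 on the Trp53-/- arrays (wild-type q = 0.00492), and the wild-type values were almost equal. Cdc6, the ATPase that acts beside it, had -0.53 and -0.29 on the wild-type arrays and 0.069 and 0.021 on the Trp53-/- arrays (wild-type q = 0.00807). The second probe of Cdc6, further along the gene and dimmer, moved the other way in wild-type, with a mean of 0.24. In Trp53-/- both probes had means above 0, at 0.045 for the brighter and 0.57 for the second. The direction for Cdc6 in wild-type therefore rests on the choice of probe. For Gmnn, the inhibitor of Cdt1, the ratios were -0.19 and 0.063 on the wild-type arrays and 0.69 and 0.27 on the Trp53-/- arrays, with no call in wild-type (q = 0.389) and a rise in Trp53-/- (q = 0.00981) that was larger on replicate 1. The difference between genotypes was not called for any of these genes (q = 0.0614 for Cdt1, q = 0.11 for Cdc6 and q = 0.111 for Gmnn).

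Of the 3 firing factors, Dbf4 fell in wild-type and Mcm10 rose in Trp53-/-. Dbf4, the subunit that activates the Cdc7 kinase, had ratios of -0.65 and -0.73 on the wild-type arrays and 0.0049 and -0.20 on the Trp53-/- arrays, and its fall of 37.9% in wild-type (q = 0.000526) was among the 3 largest of the group. Cdc7 itself, the catalytic subunit, passed no test in any comparison, and its ratios lay between -0.34 and 0.10 on the 4 arrays, with the genotypes overlapping. Mcm10, which joins the helicase to polymerase alpha, had -0.19 and -0.28 on the wild-type arrays and 0.44 and 0.43 on the Trp53-/- arrays. It rose in Trp53-/- (q = 0.00501) with the arrays nearly equal, was just outside the threshold in wild-type (q = 0.0506), and differed between genotypes by -0.67 ± 0.13 (SE).

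The 4 GINS subunits, which form one complex with Cdc45 and the ring, included 3 that fell in wild-type and 2 that rose in Trp53-/-. Gins2 (Psf2) had ratios of -0.52 and -0.63 on the wild-type arrays and 0.057 and -0.017 on the Trp53-/- arrays, a fall of 32.9% in wild-type (q = 0.00106) and a genotype difference of -0.60 ± 0.13 (SE) (q = 0.0406). Gins1 (Psf1) had -0.44 and -0.30 on the wild-type arrays and 0.50 and 0.092 on the Trp53-/- arrays, falling in wild-type (q = 0.0215) and rising in Trp53-/- (q = 0.0479), where replicate 1 was well above replicate 2. Gins3 (Psf3) was below 0 on every array, with -0.33 and -0.32 on the wild-type arrays and -0.19 and -0.13 on the Trp53-/- arrays, and only the wild-type fall was called (q = 0.0147). Gins4 (Sld5) was the only one of the 37 genes with a mean above 0 in wild-type. Its ratios were -0.012 and 0.13 on the wild-type arrays and 0.51 and 0.75 on the Trp53-/- arrays, and the rise in Trp53-/-, 1.55-fold, was the largest of the group (q = 0.00161). The interval of the genotype difference excluded 0 for Gins1, Gins2 and Gins4 and included it for Gins3 (95% confidence interval -0.44 to 0.11), although only that of Gins2 passed the adjusted threshold.

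At the clamp, Pcna, the ring that tethers polymerases to DNA, had ratios of -0.40 and -0.40 on the wild-type arrays and 0.16 and -0.15 on the Trp53-/- arrays. The fall in wild-type was 24.2% (q = 0.0105) with almost equal arrays, whereas the Trp53-/- arrays lay on either side of 0. Of the clamp loader, 4 of 5 subunits fell in wild-type. The largest fall was that of Rfc5, with ratios of -0.65 and -0.89 on the wild-type arrays and -0.27 and -0.37 on the Trp53-/- arrays. It fell in both genotypes (q = 0.000374 and q = 0.0242; with median centring the Trp53-/- mean was 0.035), by 41.4% and 19.8%, and the wild-type arrays were lower than the Trp53-/- arrays without overlap. Rfc4 had -0.56 and -0.43 on the wild-type arrays and 0.20 and -0.02 on the Trp53-/- arrays (q = 0.00327 in wild-type). The large subunit Rfc1 had -0.25 and -0.48 on the wild-type arrays and 0.19 and 0.16 on the Trp53-/- arrays, and Rfc2 had -0.26 and -0.42 on the wild-type arrays and 0.086 and 0.10 on the Trp53-/- arrays. Both fell in wild-type (q = 0.0128 and q = 0.0136) and were slightly above 0 on each Trp53-/- array. Rfc3 was the exception, with -0.26 and -0.081 on the wild-type arrays and 0.24 and 0.45 on the Trp53-/- arrays: no call was made in wild-type (q = 0.132), and it rose in Trp53-/- (q = 0.0188). No subunit of the loader passed the test of the genotype difference, while all 5 had an unadjusted p below 0.05.

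Polymerase alpha-primase, which starts each strand, was the one assembly of which no subunit was called in wild-type. Prim1, the catalytic primase subunit, had -0.28 and -0.20 on the wild-type arrays and 0.47 and 0.21 on the Trp53-/- arrays, and its rise in Trp53-/- was called (q = 0.0201) while wild-type was not (q = 0.0616). Pola1, the catalytic polymerase subunit, had a mean of -0.23 in wild-type (q = 0.0695) and rose by 0.26 in Trp53-/- at the edge of the threshold (q = 0.05). Its partner Pola2 stayed within -0.17 to 0.087 on the 4 arrays. Prim2, the large primase subunit, was singled out after its values were seen, because a single array moved it. Its ratios were -0.25 and -0.24 on the wild-type arrays and 0.41 and -2.98 on the Trp53-/- arrays, and its untreated level was 7.78 and 10.17 on the wild-type arrays and 9.97 and 9.95 on the Trp53-/- arrays. The treated channel was 7.53 and 9.93 in wild-type and 10.38 and 6.97 in Trp53-/-, so wild-type replicate 1 was low in both channels and Trp53-/- replicate 2 only in the treated one. Prim2 passed no test, and the array of its low treated value is the one with the unlike Y-linked genes.

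Among the extending polymerases, Pold1, the catalytic subunit of polymerase delta, had the largest wild-type fall of the 37 genes, with ratios of -0.77 and -0.97 on the wild-type arrays and -0.26 and -0.28 on the Trp53-/- arrays. It fell in both genotypes, by 45.4% in wild-type (q = 0.000207) and 17.1% in Trp53-/- (q = 0.0376). With median centring its mean log2 ratio in Trp53-/- was 0.066, above 0. In the main fit the fall was deeper in wild-type by 0.60 ± 0.13 (SE, q = 0.0433). Its accessory subunit Pold2 had -0.27 and -0.53 on the wild-type arrays and 0.13 and 0.11 on the Trp53-/- arrays (wild-type q = 0.00941). Pole, the catalytic subunit of polymerase epsilon, had -0.43 and -0.53 on the wild-type arrays and 0.32 and 0.12 on the Trp53-/- arrays, a wild-type fall of 28.3% (q = 0.00337) and a difference of -0.70 ± 0.13 (SE). A second probe of Pole agreed in wild-type (mean -0.49) but was below 0 in Trp53-/- (mean -0.23). Pole2, the accessory subunit of polymerase epsilon, had -0.22 and -0.17 on the wild-type arrays and 0.61 and 0.48 on the Trp53-/- arrays. It was not called in wild-type (q = 0.0835), rose 1.46-fold in Trp53-/- (q = 0.00203), and its difference of -0.74 ± 0.13 (SE) had the smallest q of the group (q = 0.0171). On every array the ratio of Pold1 was below that of Pole2.

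The remaining factors act on the exposed and the finished strand. Of RPA, the trimer that coats single-stranded DNA, Rpa1 had -0.17 and -0.56 on the wild-type arrays and -0.038 and -0.19 on the Trp53-/- arrays and fell in wild-type (q = 0.0213), mainly through replicate 2. Rpa2 had means of -0.24 in wild-type (q = 0.0442) and 0.26 in Trp53-/- (q = 0.0365), both called, in opposite directions, although of 14 alternatives the wild-type call was made in 4, with means of -0.28 to -0.052, and the Trp53-/- call in 6. Rpa3, the smallest subunit, passed no test, and its mean was -0.16 in wild-type and -0.073 in Trp53-/-. Lig1, which joins Okazaki fragments, had -0.37 and -0.58 on the wild-type arrays and 0.09 and 0.15 on the Trp53-/- arrays (wild-type q = 0.00341, difference -0.60 ± 0.13 (SE), q = 0.0455). The CAF-1 subunits place histones on new DNA. Chaf1b had -0.46 and -0.78 on the wild-type arrays and 0.10 and 0.088 on the Trp53-/- arrays, a fall of 34.8% in wild-type (q = 0.00136) and a difference of -0.71 ± 0.14 (SE), and its second probe gave similar means (-0.67 and 0.15). Chaf1a had -0.049 and -0.31 on the wild-type arrays and 0.30 and 0.33 on the Trp53-/- arrays, with no call in wild-type (q = 0.118) and a rise in Trp53-/- (q = 0.0253).

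Counted over the comparisons, 33 of the 37 genes (89.2%) passed at least 1 of the 4 tests, as did 44.0% of the 17245 genes tested in all 4. The 4 that passed none were Cdc7, Pola2, Prim2 and Rpa3. Of the 25 genes that fell in wild-type, 20 were not called in Trp53-/-, 3 rose there (Mcm3, Gins1 and Rpa2) and 2 fell there as well (Pold1 and Rfc5). Of all 2276 genes that fell in wild-type, 53.7% were not called in Trp53-/-, 0.879% rose there and 45.4% fell there. Under the 14 alternatives the calls of the 3 genes held unevenly. That of Mcm3 was made in 11 for each genotype, that of Gins1 in 11 for wild-type and 8 for Trp53-/-, and that of Rpa2 in 4 and 6. For the 8 genes with more than 1 probe above background, the probes had the same sign in wild-type for 7, with Cdc6 the exception, and in Trp53-/- for 6, the exceptions being Pole and Rfc4.

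In untreated cells the replication genes were lower in Trp53-/- than in wild-type for 33 of 37, against 8392 of all 17245 genes. They were lower by a median of 0.35 log2 units, where the median over all genes was 0.014 in the other direction. Both Trp53-/- levels lay below both wild-type levels for 24 genes, against 28.4% of all genes, and above them for 1, Rpa1, against 28.8%. Only 4 genes passed the test as lower (background 4.67%) and none as higher (background 4.66%). Gmnn had levels of 10.50 and 10.15 on the wild-type arrays and 9.45 and 9.55 on the Trp53-/- arrays (q = 0.0433). Pole2 had 10.16 and 10.01 on the wild-type arrays and 9.36 and 9.29 on the Trp53-/- arrays (q = 0.0391). The GINS genes supplied the other two, Gins1 with 11.21 and 11.41 on the wild-type arrays and 10.58 and 10.64 on the Trp53-/- arrays (q = 0.0481) and Gins4 with 11.07 and 11.24 on the wild-type arrays and 10.45 and 10.50 on the Trp53-/- arrays (q = 0.0487). In each of the 4 genes both Trp53-/- arrays were low and the genotypes did not overlap. Differences of similar size missed the threshold for Gins3 (-0.72, q = 0.0723) and Mcm2 (-0.54, q = 0.0739), and Pcna was lower by 0.52 (q = 0.132). Pold1, the gene of the deepest fall with PJ34 in wild-type, differed by -0.073 between untreated genotypes (q = 0.481).

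This comparison runs between arrays that lay on separate slides and were scanned separately. Genotype and array therefore cannot be told apart beyond the spread of 2 arrays. The Y-linked genes differed between the untreated genotypes and the background of the Trp53-/- line is not given. Embryo sex and strain therefore cannot be told apart from genotype in this comparison either. None of the 4 calls held without Trp53-/- replicate 1 or without Trp53-/- replicate 2. Markers of other cell types moved in it too. Of 7 oligodendrocyte markers 6 were higher in untreated Trp53-/- cells and 3 passed the test, and their summed log2 level was 13.37 to 13.49 in wild-type and 14.15 to 14.16 in Trp53-/-. Of 6 astrocyte markers 5 were higher and 3 passed, with sums of 15.27 to 15.31 and 15.51 to 15.54. With PJ34, 5 of the 7 oligodendrocyte markers fell in Trp53-/- and 2 in wild-type. Of the 8 neuron markers 3 rose and 0 fell in wild-type (median 0.22), and 1 rose and 0 fell in Trp53-/- (median 0.081). Of the 6 astrocyte markers 2 fell and 0 rose in wild-type, and 2 rose and 2 fell in Trp53-/-. Of the 10 neural stem/progenitor markers 3 rose and 2 fell in wild-type, and 2 rose and 1 fell in Trp53-/-. Over all genes 13.6% rose and 11.3% fell in wild-type, and 12.8% rose and 10.5% fell in Trp53-/-. Counts of 1 in lists this short are therefore near the background. The 10 neural stem/progenitor markers had a median difference of -0.045 between untreated genotypes and sums of 16.96 to 17.33 and 17.03 in both. Of 8 neuron markers 6 were above background, and 2 passed as higher and 1 as lower, with sums of 13.01 to 13.35 and 12.88 to 12.92. Of 6 markers of microglia and blood, Aif1, Cx3cr1, Ptprc and Hba-a1 were not well above background on any untreated channel. Csf1r and Itgam were above background on all 4 untreated channels. They were lower in Trp53-/- by 0.82 and 0.68, without a call (limma q = 0.0517 and q = 0.0557). The sums of this list were 12.59 to 12.83 and 11.93 to 12.14. Of 7 markers of endothelium and mesenchyme 5 were not above background on any untreated channel. Their sums, 13.03 to 13.10 and 11.75 to 11.92, were carried by Kdr. The part of these markers in the result for the replication genes was not tested.

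**Figure D5:**
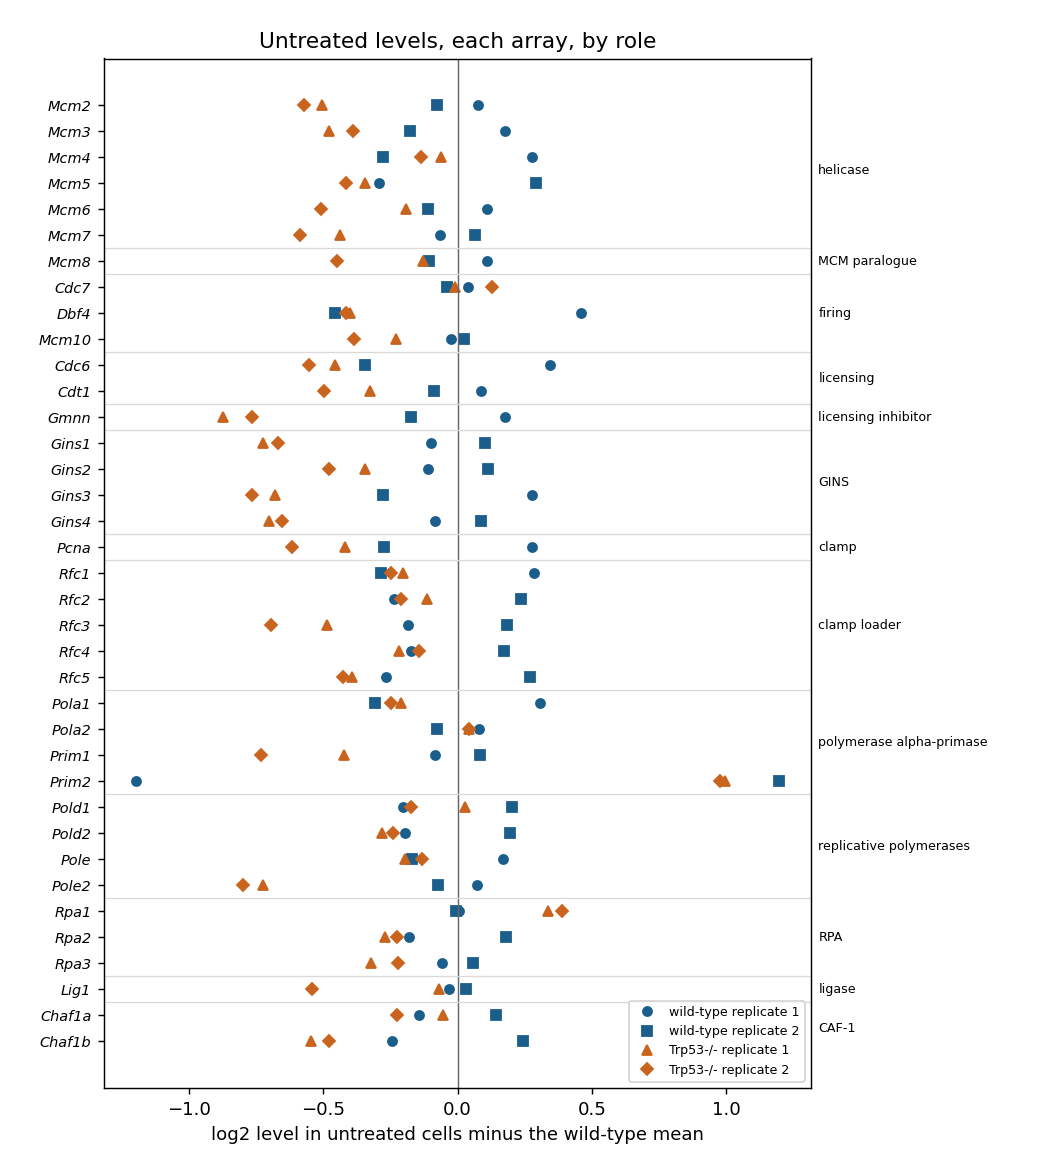
Log2 level of the 37 genes in the untreated channel of each array, relative to the mean of the wild-type arrays, grouped by role, with wild-type arrays in blue and Trp53-/- arrays in orange. For 33 genes the Trp53-/- mean lies below 0, and Gmnn, Gins1, Gins4 and Pole2 passed the test.

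In the treated channels most of the genes were not lower in Trp53-/-. The mean level after PJ34 was higher in Trp53-/- than in wild-type for 27 of 37 genes, with a median of 0.18, where the untreated median was -0.35. Over all 17245 genes 53.4% were higher, with a median of 0.033. None of the 37 passed the test of treated levels (limma's separate-channel fit, q below 0.05), where 4.77% of all genes were called higher and 7.29% lower. At an unadjusted p below 0.05, 3 were higher in Trp53-/- (Rpa1, Pold1 and Pole, against 11% of all genes) and Gins3 was lower (against 13.5%). The untreated channels enter the ratios, the genotype difference and this comparison alike, so these values are not independent of one another. For Pole2 the treated level was 9.93 and 9.84 in wild-type and 9.97 and 9.77 in Trp53-/-, and for Gins4 it was 11.06 and 11.37 against 10.96 and 11.25. In both genes the treated levels of the genotypes overlapped where the untreated levels did not. For Pold1, by contrast, the untreated levels overlapped, at 11.96 and 12.36 against 12.19 and 11.99, and the treated ones did not, at 11.19 and 11.39 against 11.93 and 11.71. For Mcm6 the untreated levels were 14.65 and 14.43 in wild-type against 14.35 and 14.04, and the treated levels 14.07 and 13.67 against 14.42 and 14.01, so the genotypes overlapped only after PJ34.

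Replication genes outside the group were read from 2 further lists. Of all genes, 11.3% fell and 13.6% rose in wild-type, and 12.8% rose and 10.5% fell in Trp53-/-. The genotype difference was called as lower in wild-type for 0.470% of all genes. Of 15 other genes of origin licensing and firing, 14 were tested, and 6 fell in wild-type, none rose, and 2 rose in Trp53-/-. The 2 that rose in Trp53-/- were near the share over all genes. Recql4, a helicase needed to fire origins, had ratios of -0.55 and -0.50 in wild-type and 0.11 and 0.066 in Trp53-/-, and was the one gene of that list with a called genotype difference (-0.61, q = 0.0343). Of 24 genes of the fork, of Okazaki fragment processing and of replicated chromatin, 14 fell and 1 rose in wild-type, and 6 rose and none fell in Trp53-/-. Uhrf1, which recruits the maintenance methyltransferase, had the largest fall in wild-type of either list, at -0.78 and -0.96, against -0.18 and -0.23 in Trp53-/-. Its genotype difference was called (-0.67, q = 0.0302), as was that of Dnmt1, the methyltransferase itself, at -0.31 and -0.42 in wild-type and 0.29 and 0.20 in Trp53-/- (-0.61, q = 0.0387). Top1, the topoisomerase that relaxes DNA ahead of the fork, was the gene that rose in wild-type, at 0.45 and 0.53, and it rose in Trp53-/- as well, at 0.73 and 0.64. The median ratios of the 2 lists were -0.19 and -0.29 in wild-type, against -0.37 for the 37 genes, and 0.026 and 0.047 in Trp53-/-.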

How the data were processed

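Total RNA of NSPCs was hybridised to Agilent SurePrint G3 Mouse GE 8x60K arrays, on which each array carried PJ34-treated RNA (Cy5, red) and untreated RNA (Cy3, green). The deposited intensity values were written by the authors' scanner software, Feature Extraction 10.7.3.1 per the submitters' processing notes, as the mean and background of each spot, and the log10 ratio of red over green in the same deposited files had been background-subtracted and dye-normalized by that software. Probe positions in the files are on mm9. The deposited value table of the whole series was not used, because its 4 columns could not be matched to samples by name.

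Spot intensities were corrected with normexp (offset 50) and normalized by loess within arrays in limma 3.58.1 (R 4.3.3), and the untreated channels by Aquantile between arrays. Probes above background on both arrays of a genotype in at least 1 channel were kept (27042 of 55681), and the brightest probe stood for a gene. Linear models with empirical Bayes moderation gave the response in each genotype, the difference of responses and the untreated difference over all genes, and q values were computed after Storey over all genes tested. The residual degrees of freedom were 2, so precision rests on 2 arrays per genotype. Each array lay on a slide of its own, so a slide block could not be fitted.

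The 37 genes and the other lists were chosen with earlier results of these data known. Values on every array were given for genes with q below 0.05 in any comparison (at most 30, by q), for Pcna and Mcm2 to Mcm7, and for Prim2, singled out after its values were seen. Replicate numbers did not pair the arrays (correlation of deviations of same-numbered arrays -0.18 for ratios and 0.081 for untreated levels). Promoter windows were RefSeq's on GRCm38.p6. Alternatives were no background correction, an offset of 16, median centring, quantile normalization of the untreated channels, the scanner's values, other filters and probe rules, Benjamini-Hochberg adjustment, a replicate block, a separate-channel fit and leaving out each array. The pipeline was tested on simulated data.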

Additional observations from a re-analysis of the deposited data

Results flagged for a closer look

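For 12 replication genes the response to PJ34 differed between genotypes by the test of the difference itself (limma, q below 0.05, 2 arrays per genotype), and in each the log2 ratio was lower in wild-type. Wild-type minus Trp53-/-, the differences were -0.74 for Pole2, -0.73 for Mcm3 and -0.67 for Mcm10, of which Mcm10 and Pole2 had not been called in wild-type and all 3 rose in Trp53-/-. They were -0.71 for Chaf1b, -0.70 for Pole and -0.70 for Mcm6, which fell in wild-type and were not called in Trp53-/-. They were -0.61 for Mcm7, -0.60 for Pold1, -0.60 for Lig1, -0.60 for Gins2, -0.59 for Dbf4 and -0.58 for Mcm4, where Pold1 also fell in Trp53-/-. In all 12 both wild-type ratios lay below both Trp53-/- ratios.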

How the results depend on the processing

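The main counts of replication genes past q below 0.05 were 25 lower in wild-type, 11 higher and 2 lower in Trp53-/-, 12 with a lower response in wild-type, and 4 with a lower untreated level in Trp53-/-. The sign of every median over the 37 genes was the same under every alternative run. Median centring gave 13 lower and 1 higher in wild-type and 29 higher in Trp53-/-, where Gins3 (0.24), Mcm7 (0.42), Pold1 (0.066), Rfc5 (0.035), Rpa1 (0.34) and Rpa3 (0.29) turned from below to above 0. The scanner's log ratios gave 10 lower in wild-type, 2 higher and 0 lower in Trp53-/- and 0 differences, and its processed signal 0 untreated calls. An offset of 16 gave 7 higher and 1 lower in Trp53-/-, 0 differences and 2 untreated calls, and no background correction 5 differences. Benjamini-Hochberg adjustment gave 7 higher and 1 lower in Trp53-/-, 6 differences and 0 untreated calls. Without the filter on dim probes, 1 gene was lower in Trp53-/- and 1 in the untreated comparison, and with the strict filter the latter count was 2. The share of all genes called is not set beside the counts under the alternatives, here or below. They therefore do not show whether the group moved apart from other genes. The cause of these shifts was not tested.

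With the replicate block the differences numbered 19, and 1 gene had a higher untreated level in Trp53-/-. With the numbers crossed, a pairing added after the data were seen, they numbered 28. Leaving out each array in turn gave 13 (without wild-type replicate 2) to 24 lower in wild-type, 4 to 11 higher and 0 to 3 lower in Trp53-/-, 0 (without Trp53-/- replicate 1) to 18 lower and 0 to 1 higher differences, and 0 (without either Trp53-/- array) to 21 lower and 0 to 2 higher untreated levels. A genotype left with 1 array is then assumed to vary like the other. The arrays had 21505 to 24540 of 55681 probes above background in the untreated channel, and every probe used for the 37 genes was above it on all 4 arrays.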
